A study of Homo sapiens with 6 samples.

Results

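Ribonucleotide reductase and the enzymes that make or salvage deoxynucleotides were described as a group of 9 genes, chosen by symbol for their place in deoxynucleotide synthesis: *RRM1*, *RRM2*, *RRM2B*, *TYMS*, *DTYMK*, *TK1*, *TK2*, *DCK* and *DGUOK*. The choice was made with earlier results of these data known. All 9 were found among the 58336 genes of the count table, and all 9 passed the filter on low counts, which left 15844 genes. The study asked how mitotic MTH1 inhibitors act on ovarian cancer cells, and RNA sequencing was done in A2780, an established ovarian cancer cell line grown in culture. Polyadenylated RNA was taken from A2780 given DMSO vehicle (3 libraries, replicates A, B and C) or 6 µM TH588, spelled TH-588 in the labels, for 48 h (3 libraries, replicates A, B and C). TH588 is a small molecule inhibitor of MTH1, the hydrolase that removes oxidized nucleotides from the deoxynucleotide pool, and all 6 libraries come from the same cell line.

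Ribonucleotide reductase removes an oxygen from the ribose of ribonucleoside diphosphates and so supplies the building blocks of DNA. Its large subunit binds substrate and holds the regulatory sites, and its small subunit carries the radical needed for catalysis, either as RRM2, which is made for S phase, or as RRM2B, which is induced by DNA damage and serves DNA repair and mitochondrial DNA in cells that do not divide. Thymidine nucleotides need further steps, and nucleoside kinases in the cytosol and in mitochondria recover deoxynucleosides.

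Total counts ranged from 28537837 to 99074175 per library. TH588 replicate A was the shallowest, and a single small nucleolar RNA, *SNORD3A*, made up 21.9% of it, so values are also given without that library. *SNORD3A* made up 11.2% and 13% of TH588 replicates B and C. In DMSO replicates A, B and C it made up 7.68%, 10.6% and 9.88%. Its share was thus higher in every TH588 library than in every DMSO library, and the cause was not tested. Levels are given as CPM, counts scaled to a common library size after TMM factors. The 9 genes together held 550 to 578 CPM with DMSO and 387 to 463 CPM with TH588. Of 9 ovarian epithelial marker genes only *EPCAM* and *KRT18* passed the filter, *SOX17* had 0 counts in every library, and *PAX8*, *KRT7* and *MUC16* had 0 counts in every DMSO library. The summed level of the 9 markers was 3.87 to 4.66 CPM with DMSO and 11 to 12.3 CPM with TH588. Leukocyte markers (5 genes) summed to 0.718 to 1.24 CPM with DMSO and 0.779 to 0.971 CPM with TH588, with *CD3E* at 0 in every library. Endothelial markers (3 genes) reached at most 0.132 CPM. Fibroblast markers (4 genes) summed to 13.5 to 15.6 CPM with DMSO and 16.3 to 18.8 CPM with TH588. The part of these differences in the results was not tested. In bulk RNA, fewer cells of a kind and less RNA per cell cannot be told apart.

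After TH588, *RRM2B* rose 4.57-fold, while both other reductase genes and 4 of the 6 remaining genes fell, by 1.63-fold (*TYMS*) to 3.83-fold (*RRM2*). *TK2* and *DGUOK*, which encode the mitochondrial kinases, did not pass the test. In counts, 6 of the 9 genes were called lower and 1 higher, with a threshold of 0.05 on the adjusted p (edgeR's quasi-likelihood test with Benjamini-Hochberg adjustment over all genes tested). Over all genes 49.6% were called, 24.2% as higher and 25.3% as lower, so that 48.9% of calls were higher, against 60.4% with library size only. The groups did not overlap for 7 of the 9 genes, against 57.7% of all genes tested. The median log2 fold change of the 9 genes was -0.95, against 0.02 over all genes. Without TH588 replicate A, 2 were higher and 6 were lower, and the log2 fold changes of the 7 called genes were -0.93 (*RRM1*), -1.77 (*RRM2*), 2.26 (*RRM2B*), -0.52 (*TYMS*), -1.10 (*DTYMK*), -1.54 (*TK1*) and -0.88 (*DCK*).

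**Figure D1:**
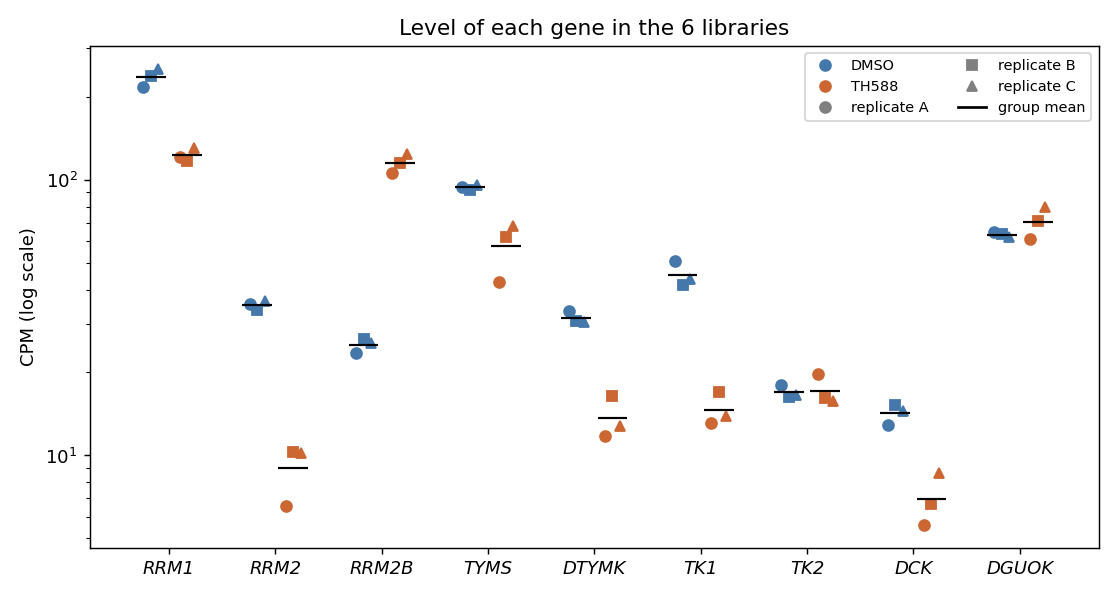
The level of each gene in each library is plotted in CPM on a log scale, with a point per library, blue for DMSO and orange for TH588, and a bar at the group mean. The groups are apart for every gene but *TK2* and *DGUOK*, and *RRM2B* is the gene that is higher with TH588, at 106 to 124 CPM against 23.5 to 26.5 CPM.

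*RRM1* (ENSG00000167325, GRCh38 chr11:4094707-4138876, forward strand) encodes the large subunit. It measured 217, 239 and 253 CPM with DMSO (replicates A, B and C, the order used for every gene) and 121, 117 and 130 CPM with TH588. Every TH588 library lay below every DMSO library. The means were 236 ± 18.2 and 123 ± 6.3 CPM (SD, n = 3 per group). Its log2 fold change was -0.95 ± 0.08 (SE, adjusted p = 2.43e-06, edgeR's quasi-likelihood test). Among all genes tested, 18.7% changed by at least as much in either direction.

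*RRM2* (ENSG00000171848, chr2:10120698-10131419, forward strand) encodes the small subunit of S phase. It measured 35.3, 33.6 and 36.3 CPM with DMSO and 6.54, 10.3 and 10.2 CPM with TH588. No TH588 library came near the DMSO range, and TH588 replicate A was the lowest of the 6. The mean fell from 35.1 ± 1.37 to 9.0 ± 2.14 CPM (SD, n = 3 per group). Its log2 fold change was -1.94 ± 0.15 (SE, adjusted p = 6.36e-07 by edgeR's test). As large a change in either direction was seen in 3.28% of genes. Exons of an unnamed gene on the same strand, ENSG00000284681, cover 20.2% of the exon bases of *RRM2*; that gene held 0.708 and 0.263 CPM on average. Processed copies of *RRM2* (*RRM2P2*, *RRM2P3* and *RRM2P4*) had at most 28 counts in any library.

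*RRM2B* (ENSG00000048392, chr8:102204502-102239118, reverse strand) encodes the alternative small subunit. It measured 23.5, 26.5 and 25.6 CPM with DMSO and 106, 115 and 124 CPM with TH588. The lowest TH588 library was far above the highest DMSO library. The mean rose from 25.2 ± 1.53 to 115 ± 9.33 CPM (SD, n = 3 per group). Its log2 fold change was 2.19 ± 0.09 (SE, adjusted p = 1.4e-08 by edgeR's test). As large a change was seen in 2.37% of genes, and no other gene's exons overlap those of *RRM2B*.

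**Figure D2:**
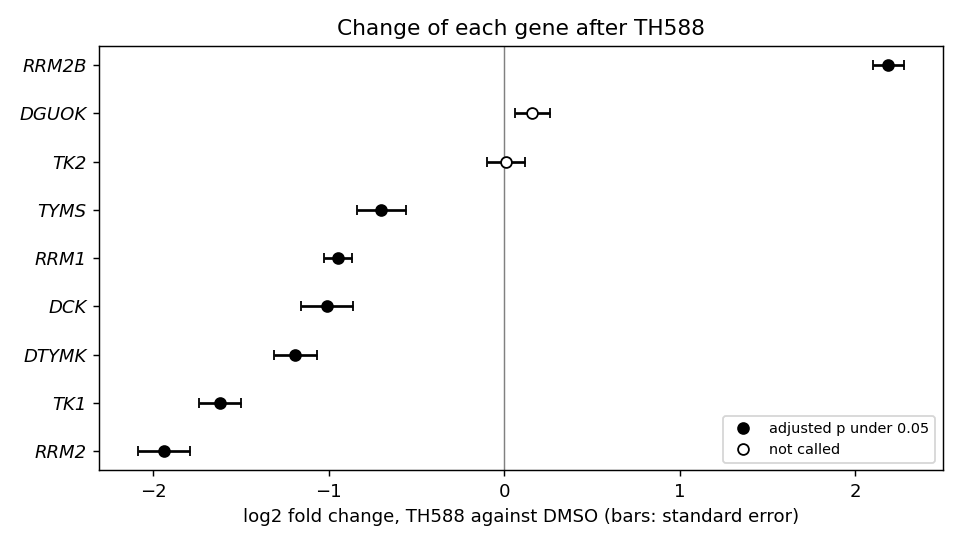
The log2 fold change of TH588 against DMSO is shown for each gene as a point, with a bar of 1 standard error on either side; filled points passed an adjusted p under 0.05. *RRM2B* lies at 2.19 and *RRM2* at -1.94, with *TK2* and *DGUOK* as the open points near 0.

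To compare transcripts of different length, CPM was divided by the exon length in the table (CPM per kilobase). On that scale *RRM1* went from 56.6 ± 4.36 to 29.3 ± 1.51, *RRM2* from 6.59 ± 0.257 to 1.69 ± 0.401, and *RRM2B* from 4.54 ± 0.275 to 20.7 ± 1.68 CPM per kilobase (SD, n = 3 each). The share of *RRM2B* in the level of both small subunits was 39%, 43% and 40.3% in the DMSO libraries. It was 93.9%, 91.4% and 92.2% in the TH588 libraries. *RRM2B* thus went from the lower to the higher of the small subunit transcripts in every library. The summed level of both was 11.1 ± 0.29 CPM per kilobase with DMSO and 22.4 ± 2.03 with TH588 (SD, n = 3 each), so the transcripts of the small subunit together were higher in each TH588 library (20.3 to 24.3) than in each DMSO library (10.9 to 11.4). With the same counts divided by a shorter length, only the exon bases that no other gene shares and that begin no repeated stretch of 50 bases (73.6% of those of *RRM2* and 96.4% of those of *RRM2B*), the share was 34.5% with DMSO and 90.4% with TH588. Reads were not recounted over those bases, so this shows the effect of the length alone, and the length was chosen after the values were seen.

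**Figure D3:**
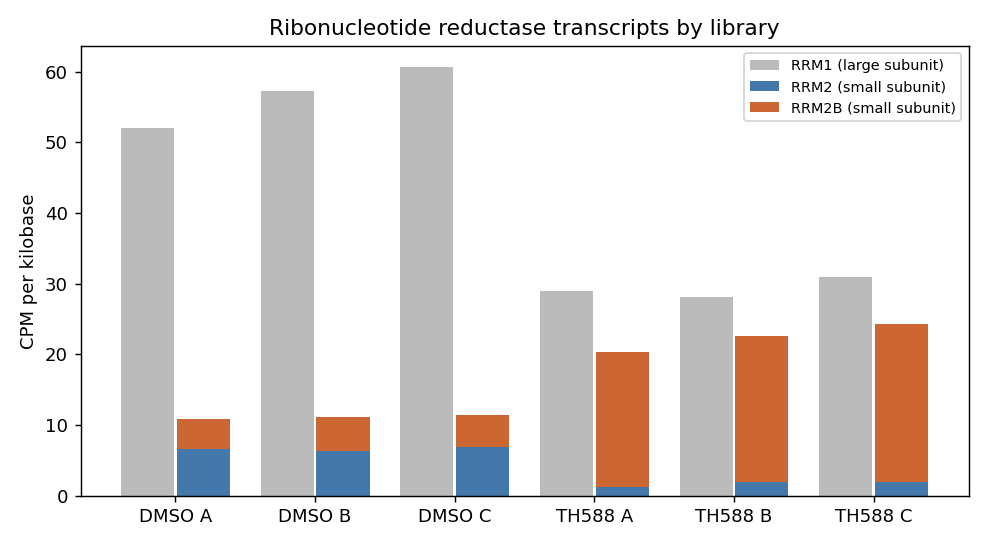
Bars give CPM per kilobase in each library, grey for *RRM1* and stacked blue and orange for *RRM2* and *RRM2B*. The orange part is 39% to 43% of the stack with DMSO and 91.4% to 93.9% with TH588, and *RRM1* is the taller bar in every library.

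Ratios of transcripts within a library do not depend on scaling between libraries. The ratio of *RRM2B* to *RRM2* was 0.639, 0.755 and 0.676 with DMSO and 15.5, 10.7 and 11.8 with TH588, an 18.2-fold difference. The ratio of *RRM1* to *RRM2* plus *RRM2B* was 4.78, 5.16 and 5.3 with DMSO and 1.42, 1.24 and 1.27 with TH588, 3.87-fold lower. Neither ratio overlapped between the groups. An exact two-sided permutation test of 3 libraries against 3 cannot go below p = 0.1, and all 5 ratios compared gave that value, also when adjusted over the 5.

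*TYMS* (ENSG00000176890, chr18:657604-673578, forward strand) encodes thymidylate synthase, which methylates dUMP to dTMP with a folate cofactor. It measured 94.5, 92 and 95.7 CPM with DMSO and 42.6, 61.9 and 68.2 CPM with TH588. The DMSO libraries were close together, and the TH588 libraries were all lower and more spread, with replicate A lowest. The mean fell from 94.1 ± 1.89 to 57.6 ± 13.3 CPM (SD, n = 3 per group). Its log2 fold change was -0.70 ± 0.14 (SE, adjusted p = 0.001 by edgeR's test). As large a change was seen in 30% of genes. Exons of other genes cover 26.2% of its exon bases, those of *ENOSF1* (18.8%) and *TYMSOS* (7.41%), both on the opposite strand. The library kit does not mark strand, so reads there cannot be told apart. *ENOSF1* fell by 0.23 on the log2 scale, from 44.6 ± 2.59 to 38 ± 1.48 CPM (adjusted p = 0.0345), while *TYMSOS* rose by 1.42 from 1.47 ± 0.287 to 3.95 ± 0.162 CPM (adjusted p = 3.88e-05, both SD, n = 3 each, edgeR's test).

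*DTYMK* (ENSG00000168393, chr2:241675742-241686991, reverse strand) encodes thymidylate kinase, which takes dTMP from either route to dTDP. It measured 33.5, 30.7 and 30.4 CPM with DMSO and 11.8, 16.5 and 12.8 CPM with TH588, without overlap. The log2 change was -1.19 ± 0.12 (SE, adjusted p = 7.66e-06 by edgeR's test), from a mean of 31.6 ± 1.72 to 13.7 ± 2.46 CPM (SD, n = 3 each). No other gene's exons overlap it.

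*TK1* (ENSG00000167900, chr17:78174075-78187233, reverse strand) encodes the cytosolic thymidine kinase, which is made around S phase. It measured 50.9, 41.4 and 43.7 CPM with DMSO and 13.1, 17 and 13.9 CPM with TH588. All TH588 libraries lay below all DMSO libraries. The mean fell from 45.4 ± 4.94 to 14.7 ± 2.07 CPM (SD, n = 3 per group). Its log2 fold change was -1.62 ± 0.12 (SE, adjusted p = 4.92e-07 by edgeR's test), and 5.7% of genes changed by at least as much. Its exons share no bases with another gene and hold no repeated stretch of 50 bases. The ratio of *TYMS* to *TK1*, the routes to dTMP by synthesis and by salvage, was per kilobase 1.4, 1.67 and 1.65 with DMSO and 2.45, 2.74 and 3.7 with TH588, 1.86-fold higher.

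*TK2* (ENSG00000166548, chr16:66508003-66552544, reverse strand) encodes the mitochondrial thymidine kinase. It measured 18, 16.3 and 16.6 CPM with DMSO and 19.7, 16.1 and 15.8 CPM with TH588, and the groups overlapped. The means were 17 ± 0.877 and 17.2 ± 2.14 CPM (SD, n = 3 each), with a log2 difference of 0.01 (standard error 0.11, adjusted p = 0.944 by edgeR's test). The 3 genes whose exons overlap 25% of its exon bases had 0 counts in every library. All 511 exon bases of ENSG00000260755, 1 of the 3, lie in exons of *TK2*. How shared reads were counted is not given in the sources used here, so its 0 does not show that it is silent. Between the thymidine kinases, the ratio of *TK1* to *TK2* per kilobase was 10.9, 9.8 and 10.1 with DMSO and 2.57, 4.08 and 3.39 with TH588, 3.12-fold lower.

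*DCK* (ENSG00000156136, chr4:70992538-71030914, forward strand) encodes deoxycytidine kinase, the cytosolic kinase of deoxycytidine that also takes deoxyadenosine and deoxyguanosine. It measured 12.9, 15.2 and 14.5 CPM with DMSO and 5.6, 6.64 and 8.65 CPM with TH588. The groups did not overlap, and the mean fell from 14.2 ± 1.2 to 6.96 ± 1.55 CPM (SD, n = 3 per group). Its log2 fold change was -1.01 ± 0.15 (SE, adjusted p = 0.000151 by edgeR's test). *MOB1B*, on the same strand, covers 6.17% of its exon bases and went the other way, from 10.1 ± 0.723 to 16.6 ± 1.87 CPM (log2 fold change 0.72, adjusted p = 0.000303).

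*DGUOK* (ENSG00000114956, chr2:73926826-73958961, forward strand) encodes the mitochondrial deoxyguanosine kinase. It measured 64.6, 63.5 and 61.9 CPM with DMSO and 60.8, 71 and 79.5 CPM with TH588. TH588 replicate A lay below the DMSO range and the other TH588 libraries above it. The log2 difference was 0.16 (standard error 0.10, adjusted p = 0.201 by edgeR's test), from a mean of 63.3 ± 1.32 to 70.4 ± 9.39 CPM (SD, n = 3 each). Without TH588 replicate A the call changed: *DGUOK* then rose by 0.26 on the log2 scale (adjusted p = 0.0128), and over the alternatives run the adjusted p ranged up to 0.545. The ratio of *DCK* to *DGUOK* per kilobase was 0.0898, 0.108 and 0.106 with DMSO and 0.0416, 0.0422 and 0.049 with TH588, 2.28-fold lower.

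**Figure D4:**
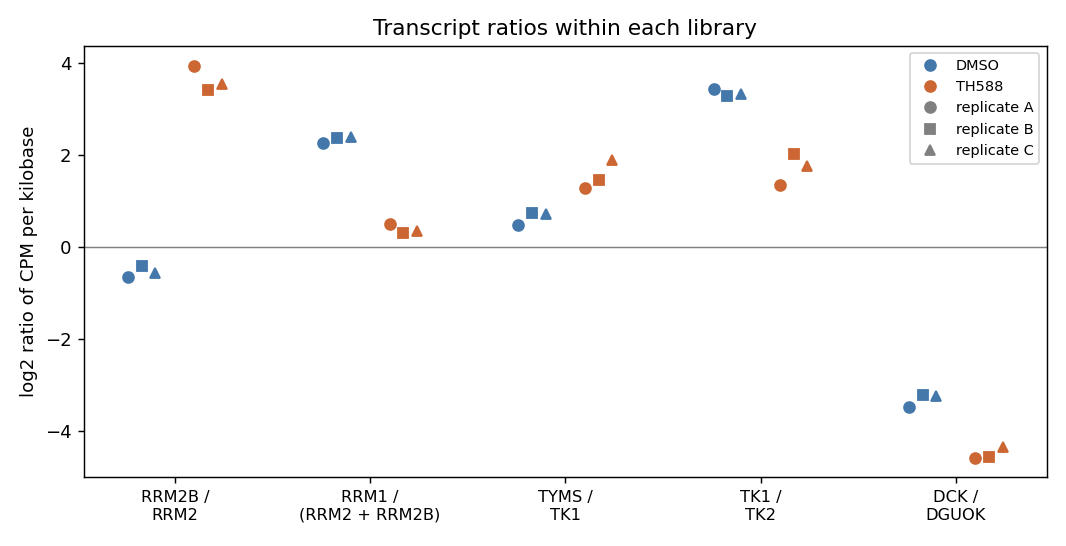
Each of the 5 ratios is plotted as the log2 of CPM per kilobase in each library, blue for DMSO and orange for TH588. The groups are apart in every ratio, with *RRM2B* to *RRM2* moving from below 0 to above 3 on the log2 axis.

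By level per kilobase, the order with DMSO was *RRM1*, *DGUOK*, *TYMS*, *TK1*, *DTYMK*, *RRM2*, *RRM2B*, *DCK* and *TK2*, from 56.6 down to 2.37 CPM per kilobase. In that order only the libraries of *RRM2B* (4.24 to 4.77) and *DCK* (3.99 to 4.71) overlapped between neighbours. With TH588 the order was *DGUOK*, *RRM1*, *TYMS*, *RRM2B*, *TK1*, *DTYMK*, *TK2*, *DCK* and *RRM2*, from 48.4 down to 1.69 CPM per kilobase. There *TYMS* and *RRM2B* overlapped, as did *TK2* with *DCK* and *DCK* with *RRM2*. By this length *RRM2* went from the sixth place to the last. The places depend on the length used. Exons of other genes cover 20.2% of the exon bases of *RRM2*, 26.2% of *TYMS* and 25% of *TK2*. The order was not worked out with the length neither shared nor repeated, and places of genes with close levels could differ there.

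The genes whose level followed *RRM2* most closely were sought by the root mean square difference of log2 CPM, each gene centred on its own mean over the 6 libraries, among 9761 genes. They were *MCM10*, a replication initiation factor (difference 0.0546, 108 to 27.9 CPM), *COQ3*, an enzyme of ubiquinone synthesis (0.098, 12.5 to 3.45 CPM), and *CDC6*, a licensing factor (0.111, 148 to 38.3 CPM). For *RRM2B* they were *MR1*, an antigen-presenting molecule (0.0804, 2.41 to 11.4 CPM), the kinase *PLK2* (0.106, 12.5 to 55.7 CPM) and *BAX*, which promotes cell death (0.114, 13.8 to 57.3 CPM). These are descriptions over 6 libraries and carry no test.

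Sequences before the start sites are shown for the 6 genes that fell, including one without a motif in the bases printed. They come from RefSeq's promoter table of GRCh38.p14, of which 10 rows, for 8 of the 9 genes, were used. Each line gives 140 bases, in the direction of the gene, ending at the base before the start site, with the motifs found in capitals. CCAAT is the box bound by NF-Y, TTTCCCGC, TTTGGCGC and TTTCGCGC are forms of the E2F site, and TTTGAA and TTCGAA are forms of the CHR element. All were searched on both strands over 250 bases before and 50 bases after the start. ATTGG is CCAAT read on the other strand, and GCGGGAAA is TTTCCCGC read on the other strand.
RRM2, chr2:10122599-10122738, forward strand: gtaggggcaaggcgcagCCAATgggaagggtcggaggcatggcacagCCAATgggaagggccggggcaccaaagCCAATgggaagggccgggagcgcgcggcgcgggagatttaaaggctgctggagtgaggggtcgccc
TK1, chr17:78187053-78187192, reverse strand: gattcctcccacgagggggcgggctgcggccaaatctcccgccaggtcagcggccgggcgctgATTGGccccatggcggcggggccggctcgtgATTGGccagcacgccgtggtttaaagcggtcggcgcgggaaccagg
DTYMK, chr2:241686816-241686955, reverse strand: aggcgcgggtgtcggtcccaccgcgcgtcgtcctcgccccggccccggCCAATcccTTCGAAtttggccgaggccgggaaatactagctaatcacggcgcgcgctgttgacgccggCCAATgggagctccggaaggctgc
TYMS, chr18:657513-657652, forward strand: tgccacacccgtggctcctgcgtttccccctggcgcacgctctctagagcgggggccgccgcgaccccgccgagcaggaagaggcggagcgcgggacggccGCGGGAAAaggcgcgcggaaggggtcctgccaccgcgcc
RRM1, chr11:4094545-4094684, forward strand: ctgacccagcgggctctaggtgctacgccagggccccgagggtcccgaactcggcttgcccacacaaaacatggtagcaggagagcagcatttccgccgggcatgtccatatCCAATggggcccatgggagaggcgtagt
DCK, chr4:70993509-70993648, forward strand: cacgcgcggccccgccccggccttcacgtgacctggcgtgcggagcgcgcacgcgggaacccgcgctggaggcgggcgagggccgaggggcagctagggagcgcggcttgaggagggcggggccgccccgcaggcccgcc

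The *RRM2* sequence holds CCAAT at 3 places, whose first bases lie 123, 93 and 66 bases before the start site. The other *RRM2* start in the table has 1 CCAAT, 249 bases before it. *TK1* holds it at 2 places on the other strand, at 77 and 46 bases before the start, while its second listed start has no motif of the set. *DTYMK* holds CCAAT at 92 and 24 and TTCGAA at 84 bases before the start. *RRM1* has CCAAT at 28 and TTTGAA, on the other strand, at 199 bases before the start. *TYMS* has an E2F form at 39 before the start and *DCK* has another on the other strand, 21 bases after it and so outside the printed bases, while *DGUOK*, which was not called, has CCAAT 231 bases before its start and *TK2* has none of the motifs. Among all 35116 promoters of the table, 34.6% hold CCAAT, 10.8% hold it at 2 or more places, 2.74% hold any E2F form, 15.2% hold TTTGAA and 1.45% hold TTCGAA. The count of promoters with 2 or more places was chosen after these values were seen. *RRM2B*, the gene called higher, was not among the rows used, so its start sites were not searched. A match describes the letters in the window and does not show that a factor binds there.

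Other genes of nucleotide metabolism were followed in 6 lists of 77 genes, of which 75 were tested. Of these, 47 were lower, 7 were higher and 21 were not called, with a median log2 fold change of -0.48, against 25.3% lower and 24.2% higher among all genes. *CDA* and *CMPK2* were too low to test. The lists were drawn up with earlier results of these data known, so these counts are a description and not a test.

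**Figure D5:**
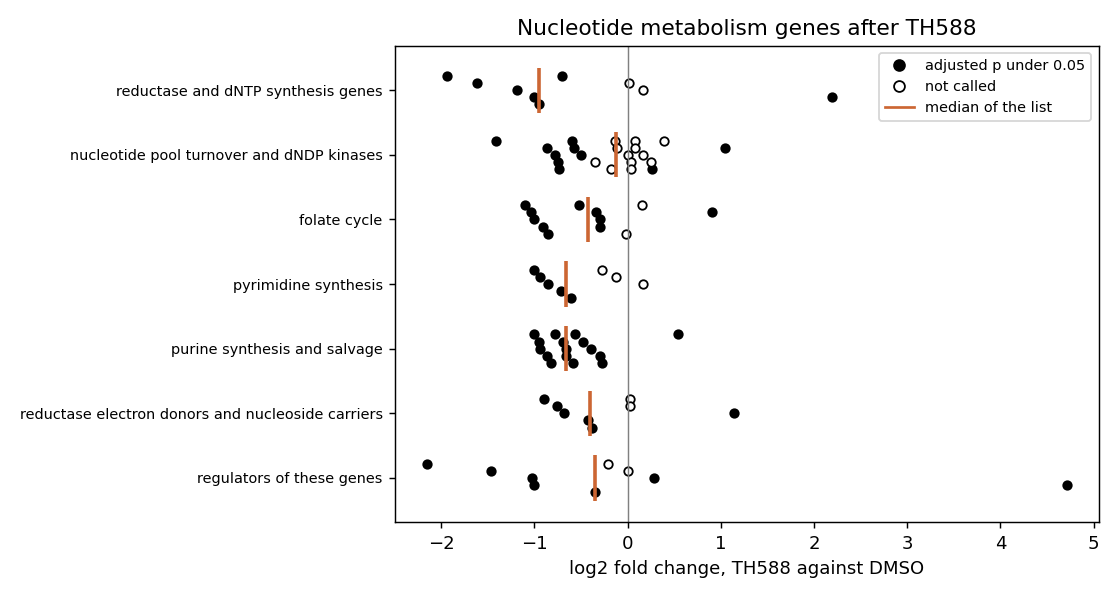
Each point is the log2 fold change of a gene, arranged by list, filled where the adjusted p was under 0.05, with a vertical bar at the median of the list. Medians lie between -0.123 and -0.948, and *CDKN1A* is the point at 4.71.

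Over all genes tested, 49.6% were called, 25.3% as lower and 24.2% as higher. Among 22 tested genes of nucleotide pool turnover and the kinases of diphosphate synthesis, 8 fell, 2 rose and 12 were not called (median -0.12). The median was -0.222 without TH588 replicate A, -0.053 without TH588 replicate B and -0.03 with library size only, with 10, 9 and 7 genes lower, and 1 gene rose in place of 2 without DMSO replicate B or C. *DUT*, the dUTPase that keeps uracil out of DNA and makes dUMP for thymidylate synthase, fell from 85.7 to 32.1 CPM (log2 fold change -1.41, adjusted p = 3.4e-07). Exons of other genes cover 14.5% of the exon bases of *DUT*, 10.3% of *SAMHD1* and 14% of *SLC19A1*. How shared reads were counted is not given in the sources used here, so the effect on their values is not known. *SAMHD1*, which degrades deoxynucleotides, fell from 86.6 to 50.3 CPM (-0.78, adjusted p = 4.19e-06), and *NT5C3A*, a pyrimidine nucleotidase, fell from 69.6 to 38.2 CPM (-0.87). *NUDT1*, which encodes MTH1, the target of the compound, fell from 16.2 to 9.60 CPM (-0.75, standard error 0.12, adjusted p = 0.000232). *UPP1*, a uridine phosphorylase, rose from 8.07 to 16.7 CPM (1.05, adjusted p = 7.54e-06). *ADA*, adenosine deaminase, rose from 49.8 to 60 CPM (0.26, adjusted p = 0.0264), a call that was lost with the replicate block (adjusted p = 0.0521) and without DMSO replicate B or C. All adjusted p-values here and in the lists that follow are from edgeR's quasi-likelihood test.

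Of 12 folate cycle genes, which supply the methyl group of dTMP, 9 fell and 1 rose (median -0.43), or 6 and 1 with library size only. The folate carrier *SLC19A1* fell from 13.8 to 6.35 CPM (-1.10, adjusted p = 5.27e-05) and the hydrolase *GGH* fell from 22 to 10.6 CPM (-1.04, adjusted p = 8.15e-06). Of 8 pyrimidine synthesis genes 5 fell and none rose (median -0.67), among them *UMPS* (-1.01) and *CAD*, which starts the pathway (693 to 361 CPM, -0.94). Of 16 purine synthesis and salvage genes 15 fell and 1 rose (median -0.66), or 12 and 1 with library size only. *IMPDH1*, on the route to guanine nucleotides, fell from 157 to 78.6 CPM and *PFAS*, a step of purine ring assembly, from 151 to 78.2 CPM. *ADSS1* rose from 4.73 to 6.77 CPM (0.54, adjusted p = 0.0194), although its groups overlapped, and it lost the call without DMSO replicate C, TH588 replicate B or TH588 replicate C.

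Of 8 genes for electron donors of the reductase and for nucleoside carriers, 5 fell and 1 rose (median -0.41). Thioredoxin, *TXN*, which reduces ribonucleotide reductase, fell from 217 to 128 CPM (-0.76, adjusted p = 1.39e-05). Glutaredoxin, *GLRX*, the other donor, rose from 6.07 to 13.6 CPM (1.14, standard error 0.20, adjusted p = 0.000412). It measured 18.4 CPM in TH588 replicate A and 10.6 and 11.8 CPM in replicates B and C. Without TH588 replicate A its log2 fold change was 0.89 (adjusted p = 0.000363). The nucleoside transporter *SLC29A1* fell from 232 to 125 CPM (-0.90). Of 9 regulators of the reductase and thymidylate genes, 5 fell and 2 rose (median -0.35). *E2F1* (-1.47, from 18.6 to 6.70 CPM) and *E2F2* (-2.15, from 11.9 to 2.67 CPM), transcription factors of S phase genes, fell. *CDKN1A*, which encodes p21, rose from 5.35 ± 0.46 to 140 ± 24.7 CPM (SD, n = 3 each; 4.71). *AHCYL1*, whose product binds the reductase, rose from 131 to 159 CPM (0.28, adjusted p = 0.00657).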

How the data were processed

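The deposited file holds raw counts per gene with no normalization. Per the labels, the authors used TopHat with GRCh38 for alignment and featureCounts 1.4.6 (Subread) for counting. UCSC gene models are named in the methods, but the table has Ensembl identifiers, of which 57754 of 58336 matched a symbol. Settings for strand and for reads that match several genes are not given in the sources used here, and the library kit does not mark strand.

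Counts were compared with edgeR 4.0.16 in R 4.3.3 (TMM, default filter on low counts, quasi-likelihood test, Benjamini-Hochberg adjustment, threshold 0.05) over all 6 libraries, with no block. Standard errors (SE) were taken as |log2 fold change| / √F. CPM is on the TMM library size. Ratios used an exact permutation test. Scripts were tested on simulated counts. Total counts were 28537837 to 99074175 per library, and a count of 0 allows up to 0.112 CPM in the shallowest library (floor of 3 counts, counting error only). Replicates differed by more than sampling noise, so each library counts as 1.

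Alternatives were limma-voom 3.58.1, DESeq2 1.42.0, its size factors within edgeR, scaling by library size alone, filters of none or of 10 counts in each library, the 10 most abundant genes left out, a replicate block, each library left out in turn, and an adjusted p under 0.01. The members and lists were chosen with earlier results of these data known. The genes named are the 9, the 2 largest rises and 2 largest falls in each list with mean log2 CPM 2 or more, NUDT1, SAMHD1 and CDKN1A, genes overlapping a member, and the 3 nearest in profile to RRM2 and RRM2B. Some genes that this rule names are not reported here.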

Additional observations from a re-analysis of the deposited data

How the results depend on the processing

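Of 126 alternative values for the 9 genes, 122 kept their direction and side of the threshold, 1 became significant and 3 changed sign. The significant one was *DGUOK* without TH588 replicate A (0.08 to 0.26 with each library left out). The sign changes were all of *TK2*, which did not pass the test: -0.02 with limma-voom and -0.08 to 0.09 with a library left out. Of 280 values for the other named genes of the lists, 274 kept both and 6 lost significance. The number of genes higher among the 9 was 1 to 2 with a library left out. With library size only, which moved the median of all genes to 0.126 from 0.019 and made 60.4% of calls higher against 48.9% (2786 genes lower against 4013), 6 folate, 12 purine, 7 pool turnover and 4 regulator genes were lower, the 9 genes kept their counts, and list medians were -0.03 for pool turnover, -0.328 for folate, -0.557 for pyrimidine, -0.558 for purine, -0.31 for electron donors and carriers and -0.244 for regulators. With at least 10 counts in every library the purine and regulator medians were -0.641 and -0.329. With a library left out, medians ranged from -0.222 to -0.053 for pool turnover, -0.481 to -0.39 for folate, -0.682 to -0.602 for purine and -0.371 to -0.301 for regulators, and 1 to 2 pool turnover genes and 0 to 1 purine genes were higher. The cause was not tested. Libraries of the same letter did not deviate together (correlations -0.07, -0.08 and 0), so the values gave no sign of a pairing by letter. With 3 libraries in a group, this cannot exclude that libraries of a letter were handled together. The replicate block gave 7195 called genes, 7129 of them shared with the fit without it, again 7 of the 9 genes, and 1 pool turnover gene higher instead of 2. Over all alternatives run, called genes ranged from 5831 to 8225. With the same counts divided by the length neither shared nor repeated, the *RRM2B* share was 34.5% and 90.4%. In the shallowest library a level under 0.112 CPM is within what a count of 0 allows.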

Other observations

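*NME1* and *NME2* encode the main nucleoside diphosphate kinases, the last step to deoxynucleoside triphosphates. *NME1* fell (log2 fold change -0.58, adjusted p = 8.19e-05 by edgeR's quasi-likelihood test), while *NME2* was counted at only 0.788 to 1.65 CPM with DMSO and was not called (0.04, adjusted p = 0.929). Exons of the readthrough gene *NME1-NME2* cover 18.6% of the exon bases of *NME1* and 22.9% of those of *NME2*, and the counting of reads in shared exons is not given in the sources used here.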
